A study of Mus musculus with 10 samples.

Results

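Nuclear genes for subunits of the oxidative phosphorylation machinery were followed in spleen T cells and type 2 conventional dendritic cells (cDC2s) of mice with floxed Cd47 and mice with a T cell deletion of Cd47. Members were chosen by a rule on names that uses no measured value, set with earlier results of these data known. They are protein-coding genes, taken by GRCm38-era symbols. The symbols are Ndufa, Ndufb, Ndufc, Ndufs or Ndufv with a number, or start with Uqcr, with Cox4 to Cox8 or with Atp5. In the GENCODE M21 annotation 81 genes matched, 80 of them protein coding, and 79 were in the deposited table of 45706 genes. They comprised 35 genes of complex I, 8 of complex III, 19 of complex IV and 16 of ATP synthase, on 19 chromosomes. Ndufa4, named for complex I and known as a complex IV subunit, was counted with complex IV. Atp5s matches by name and is not known as a subunit of the assembled enzyme, so it was kept apart.

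Complex I (NADH dehydrogenase) and complex II feed electrons to ubiquinone in the inner mitochondrial membrane, complex III passes them to cytochrome c, and complex IV (cytochrome c oxidase) passes them to oxygen. ATP synthase uses the proton gradient that results. Complexes I, III, IV and ATP synthase are built from nuclear subunits together with a small set encoded by mitochondrial DNA, and T cells are known to raise their mitochondrial content when they are activated and divide.

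The groups were T cells of Cd47f/f mice, with floxed Cd47 (2 libraries), T cells of Cd47ΔT mice, a name that denotes loss of Cd47 from T cells (2 libraries), and cDC2s of the same genotypes (3 libraries each). The sources used here give no strain, age, Cre line, deleted exons or isolation method. The library kits were TruSeq stranded mRNA for T cells and SMART-seq stranded for cDC2s, so cell type and kit cannot be told apart in levels. The values are TPM, a transcript abundance scaled by gene length and to the same total in each library. They keep no depth, so counting error is unknown. Separate mice are not stated for the libraries, and each p-value therefore reflects only how far these libraries varied, which may be technical. In bulk samples, fewer cells of a type and less RNA per cell cannot be told apart.

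Cd47 was at 138 and 233 TPM in control T cells and at 40.4 and 51.7 TPM in Cd47ΔT T cells, and between 135 and 162 TPM in all cDC2 libraries. The transcript was thus lower and still present in the Cd47ΔT T cell libraries. Cd3g, a T cell receptor subunit, was at 851 to 957 TPM in T cell libraries and at 0 in every cDC2 library. Of the 12 T cell markers 2 were at 0 in all cDC2 libraries, and the 12 summed to 166 to 211 TPM in control and 97.7 to 116 TPM in Cd47ΔT cDC2s, or to 16.0 to 24.1 and 20.2 to 25.3 TPM without Cd4. The 12 cDC2 markers summed to 7509 to 9501 TPM in cDC2 libraries, 18.9 and 25.5 TPM in control T cells and 118 and 213 TPM in Cd47ΔT T cells. Control T cell replicate 1 had a median log2 deviation of -0.11 from the control mean across the genes tested. Replicate 2 mirrored it at 0.11, since there are 2 controls. Across the members the values were 0.055 and -0.055, the other way round.

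In control T cells the 79 members together made up 1.48% and 1.36% of all TPM, and in control cDC2s 0.917%, 0.898% and 0.975%. Levels differed widely between members. In T cells the highest were Atp5b, the catalytic beta subunit of ATP synthase (731 and 747 TPM), Cox7a2l, which joins complexes III and IV into supercomplexes (723 and 639 TPM), and Uqcrh, the hinge protein of complex III (638 and 537 TPM). Ndufs1 (42.7 and 54.0 TPM) and Ndufv1 (62.6 and 62.0 TPM), both core subunits of complex I that carry redox centres, were at lower levels. Ndufv1 is the NADH-binding subunit. The core subunit Ndufs7 was at 115 and 104 TPM, and the accessory subunit Ndufa11 at 16.4 and 13.9 TPM. In control cDC2s the highest member was Cox6c, a small complex IV subunit, at 696, 679.6 and 700.4 TPM, against 298 and 296 TPM in control T cells.

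**Figure D1:**
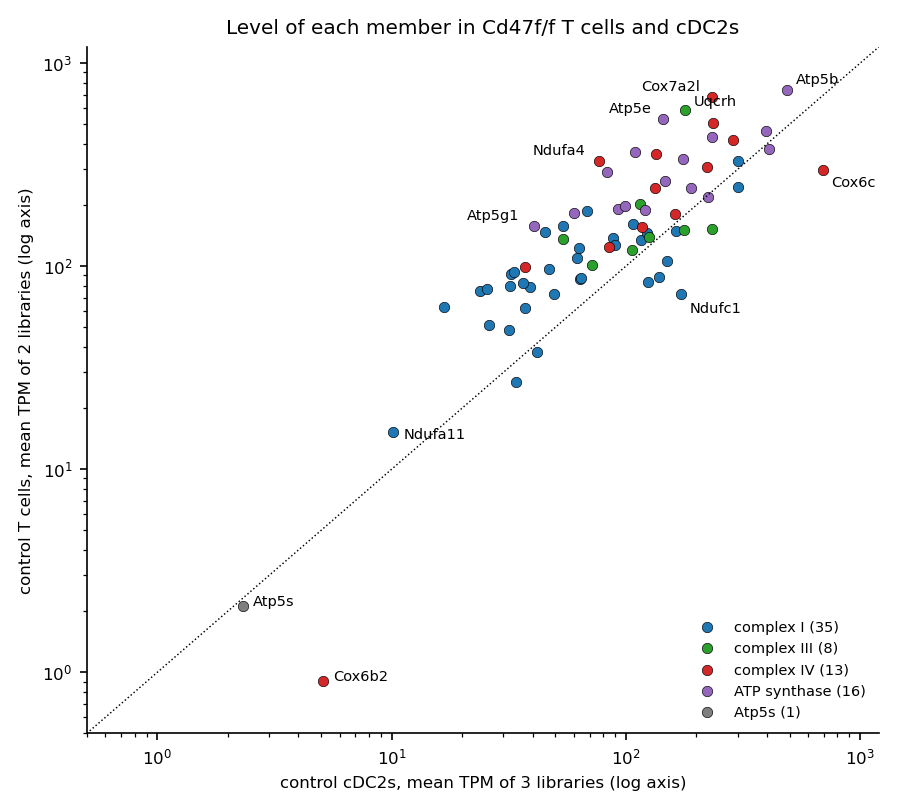
Mean TPM of each member in control T cells (vertical, 2 libraries) against control cDC2s (horizontal, 3 libraries), both on log axes, with 1 point for each of the 73 members tested in both cell types and a dotted line of equal levels. Most points lie above the line, Cox6c and Ndufc1 lie below it, and Cox6b2 and Atp5s are far below all others.

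Of the 73 members tested in both cell types, 55 (75.3%) were higher in both control T cell libraries than in all 3 control cDC2 libraries, against 38.9% of all 10650 genes. The other end held 8 members (10.96%, against 31.9% of all genes) that were lower in T cells in every library, among them Cox6c, Ndufa6, Ndufc1, Ndufc2, Ndufs5, Uqcrb and Uqcrq. The median member was 1.55-fold higher in T cells, and the median of all genes 1.08-fold. Small non-coding RNAs held 16.1% to 21.3% of TPM in control cDC2s and at most 0.160% in control T cells, and when TPM were rescaled to nuclear protein-coding genes the counts were 44 (29.8% of all genes were higher) and 14 (40.1% of all genes were lower) and the median fold 1.29. Across the 73 members, log2 levels in the cell types correlated at Pearson r = 0.84 and Spearman rho = 0.79, a description over genes that share libraries. Among members higher in T cells the widest gaps were in Ndufa4, 4.29-fold higher in control T cells, and Atp5g1, 3.90-fold higher.

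Isoforms that replace one another in complex IV were uneven in level. Cox7b2, Cox8b and Cox8c were listed at 0 in every library, and Cox4i2, the isoform of Cox4i1 known from lung and low oxygen, reached at most 0.35 TPM. Cox6a2 and Cox7a1, the forms known from muscle, stayed at or under 5.01 TPM in all libraries, while their general counterparts Cox6a1 and Cox7a2 were at 193 to 396 TPM and 24.9 to 134 TPM. Cox6b2, the form known from testis, was at 0.80 to 4.93 TPM in T cells and at 0 to 15.6 TPM in cDC2s, with a wide spread within both cDC2 genotypes. The 3 genes Atp5g1, Atp5g2 and Atp5g3, which encode the same mature c subunit of the ATP synthase ring with different targeting peptides, held 19.4% ± 1.7, 44.7% ± 3.1 and 35.8% ± 1.4 of their sum in control T cells (SD, n = 2) and 20.4% ± 0.047, 42.6% ± 0.50 and 36.9% ± 0.54 in Cd47ΔT T cells (SD, n = 2).

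In T cells the genotype comparison asks how the deletion of Cd47 altered their transcripts. Nearly all members had somewhat higher values in Cd47ΔT T cells, and few passed the test. Of 75 members tested, 7 were higher in Cd47ΔT T cells at an adjusted p under 0.05 (9.33%), against 8.5% of all 12453 genes tested, and none was lower, against 0.875% of all genes. At an unadjusted p under 0.05 there were 32 members, all higher (42.7%, against 21.6% of all genes in either direction). Without Cox6a2, Cox6b2 and Cox7a1 there were 29. The count of members called at the adjusted p was near the background. The sign was not: 74 of 75 members had a fold change above 0, against 65.4% of all genes. The median log2 fold change was 0.30 against 0.10. Cox6a2, Cox6b2 and Cox7a1 reached 1 TPM in both libraries of the Cd47ΔT genotype only and so passed the filter through the group in which they are higher. Among members with a mean of 5 TPM or more over the T cell libraries, 70 of 71 were above 0, against 64.0% of 9580 genes, with a median of 0.27 against 0.08.

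Both Cd47ΔT libraries were above both control libraries for 64 members (85.3%), against 37% of all genes, and below both for 1 member, against 11.9%. These counts follow the scaling. Median-of-ratios scaling lowered the median of all genes by 0.14 and quantile scaling by 0.18 on the log2 scale, and 58 and 62 of the 75 members then stayed above 0, against 44.5% and 39.5% of all genes. The members without overlap numbered 22 higher (29.3%, against 25.4% of all genes) after median-of-ratios scaling, and 59 higher (78.7%, against 34.0%) after rescaling to protein-coding genes. The distance between the members' median and that of all genes was 0.20 with TPM as deposited, 0.19 with median-of-ratios scaling, 0.23 with quantile scaling and 0.19 after rescaling. That distance depended on which control library was kept. Without control replicate 2 the members' median was 0.22 and that of all genes 0.23. Without control replicate 1 they were 0.35 and -0.0060, and without Cd47ΔT replicate 1 they were 0.25 and 0.11.

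**Figure D2:**
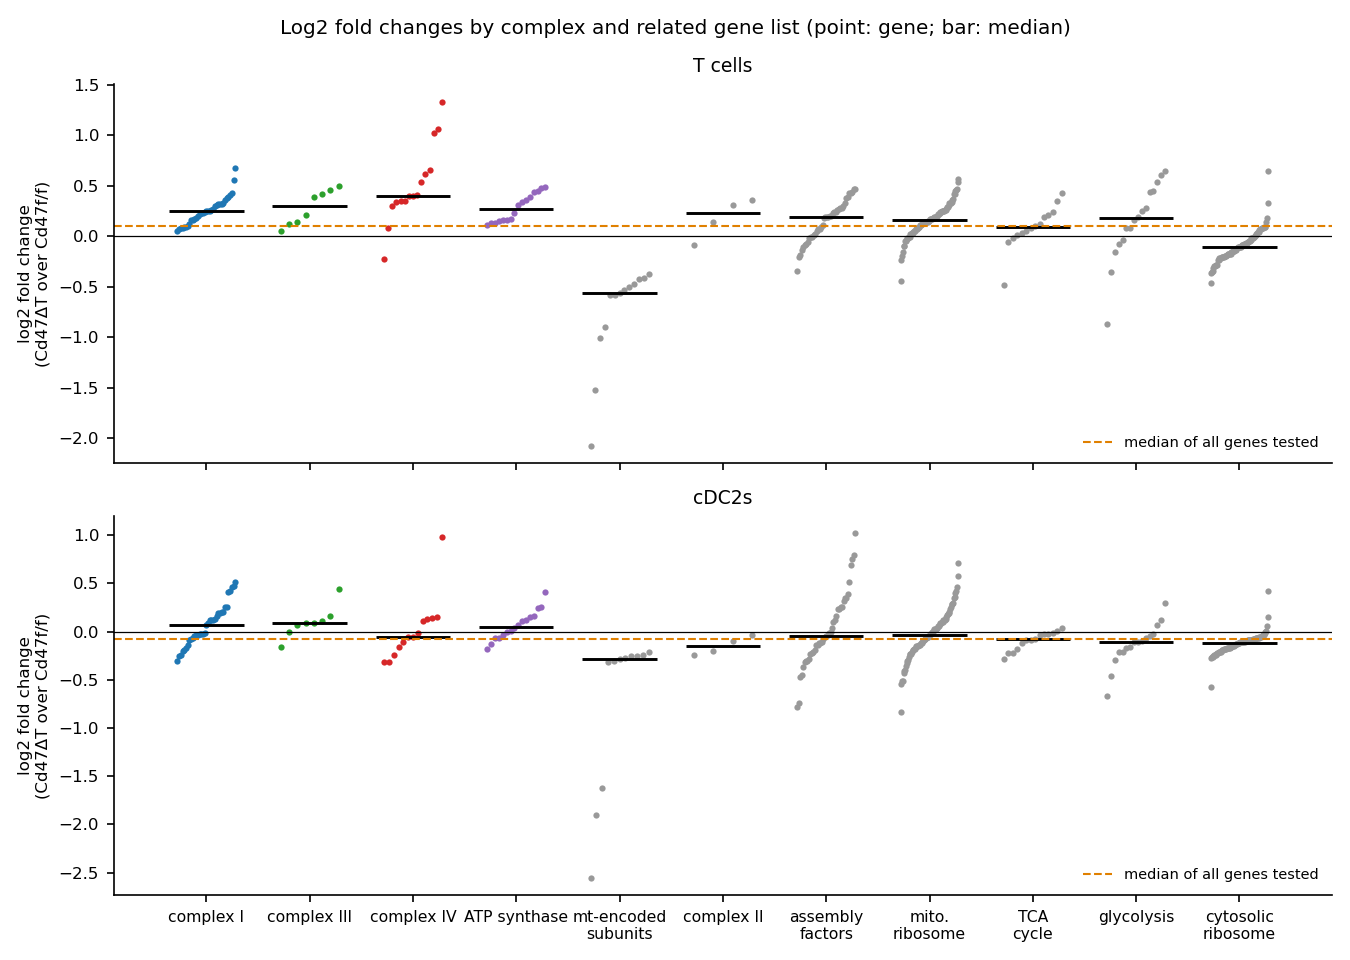
Log2 fold change of Cd47ΔT over Cd47f/f on log2(TPM + 1), 1 point per tested gene, in T cells (top) and cDC2s (bottom), for the 4 complexes and 7 related gene lists, with the median of each list as a black bar and that of all tested genes as a dashed line. In T cells the bars of complexes I, III, IV and ATP synthase lie at 0.25 to 0.40 and that of the mitochondrially encoded subunits at -0.56, and in cDC2s the bars of the complexes lie between -0.05 and 0.09.

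Complex IV held the highest median in T cells, 0.40 over 15 tested genes (0.37 over 12 without Cox6a2, Cox6b2 and Cox7a1). Of the 15, 3 were called, Cox5b, Cox7b and Ndufa4 (20.0%, against 8.5% of all genes). Cox5b (chr1:36691449-36693681, plus strand), a zinc-binding structural subunit, was at 187 and 176 TPM in control and at 305 and 269 TPM in Cd47ΔT T cells. Both Cd47ΔT values were far above both controls, a log2 fold change of 0.66 ± 0.11 (SE, n = 2 and 2; limma adjusted p = 0.021). Cox7b, a small transmembrane subunit, was at 127 and 121 TPM in control and 201 and 181 TPM in Cd47ΔT T cells, a log2 fold change of 0.62 ± 0.11 (SE; limma adjusted p = 0.025). Ndufa4 (chr6:11900292-11907497, minus strand) was at 342 and 318 TPM in control and 494 and 462 TPM in Cd47ΔT T cells, again with no overlap (0.53 ± 0.10, SE; limma adjusted p = 0.027).

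Other complex IV subunits had higher values in both Cd47ΔT libraries without passing the test. Cox8a, a small transmembrane subunit, was at 436 and 403 TPM in control and 535 and 578 TPM in Cd47ΔT T cells (log2 fold change 0.41, limma adjusted p = 0.060). Cox5a, which pairs with the Cox4 subunit, went from 152 and 159 TPM to 211 and 200.2 TPM (adjusted p = 0.070). Cox6b1, on the outer face of the enzyme, went from 364 and 349.9 TPM to 449.6 and 427 TPM (adjusted p = 0.13). Cox4i1, the main regulatory subunit, gave 541 and 476 TPM in control and 552 and 524 TPM in Cd47ΔT T cells, and its genotypes overlapped. Cox7a1, which the filter admitted through its Cd47ΔT values alone, was at 0.73 and 0.64 TPM against 5.01 and 1.99 TPM.

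Cox7a2l (chr17:83501918-83517330, minus strand) was the only member of the 75 with a fold change below 0, and it stayed below 0 under all 3 other scalings. It was at 723 and 639 TPM in control and 598 and 567 TPM in Cd47ΔT T cells, so the genotypes did not overlap, and the log2 fold change of -0.22 ± 0.10 (SE) did not pass the test (limma adjusted p = 0.29). Its paralogue Cox7a2, a complex IV subunit, was at 108 and 90.0 TPM in control and 134 and 118 TPM in Cd47ΔT T cells. The ratio of Cox7a2l to Cox7a2, which a constant factor for a library leaves as it is, was 6.69 and 7.10 in control against 4.46 and 4.80 in Cd47ΔT T cells. In cDC2s that ratio overlapped between genotypes, at 5.23 to 7.08 in control and 5.42 to 7.67 in Cd47ΔT. The ratio was not tested.

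**Figure D3:**
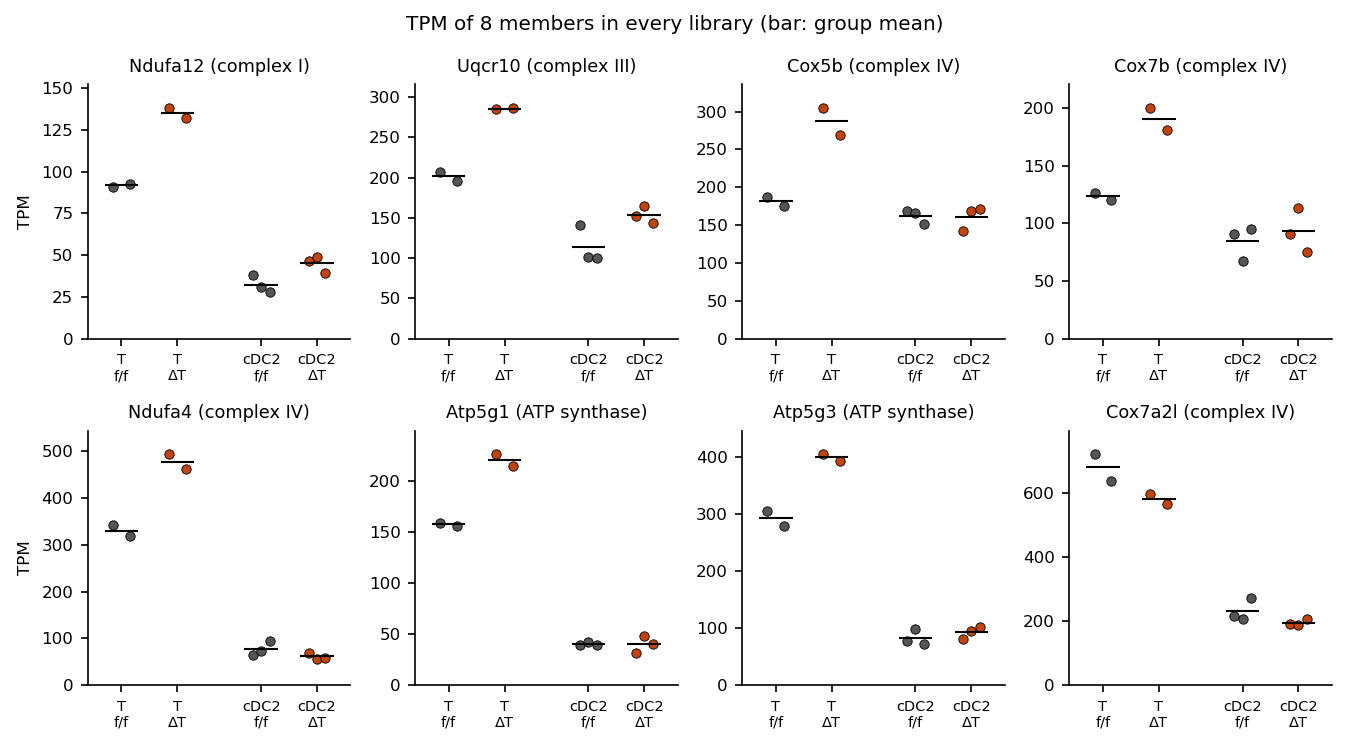
TPM of the 7 members called in T cells and of Cox7a2l in each library, with control libraries in grey, Cd47ΔT libraries in red and the group mean as a bar, on vertical axes that start at 0. In T cells the red points lie above the grey ones in 7 panels and below them for Cox7a2l, and in cDC2s grey and red points overlap except for Ndufa12, Uqcr10 and Cox7a2l.

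All 16 ATP synthase members were higher in both Cd47ΔT T cell libraries than in both controls, against 37% of all genes. Their median log2 fold change was 0.27, and under median-of-ratios scaling Atp5a1, Atp5d, Atp5h and Atp5j fell below 0. Of the 16, 2 passed the test (12.5%, against 8.5% of all genes), both c subunit genes. Atp5g1 was at 159 and 156 TPM in control and 227 and 215 TPM in Cd47ΔT T cells (log2 fold change 0.48 ± 0.10, SE; limma adjusted p = 0.038). Atp5g3 was at 305 and 279 TPM in control and 404 and 393 TPM in Cd47ΔT T cells (0.45 ± 0.10, SE; limma adjusted p = 0.045). The third gene, Atp5g2, went from 411 and 322 TPM to 475 and 445 TPM without passing the test (adjusted p = 0.23), and the 3 together summed to 876 and 758 TPM in control and 1106 and 1052 TPM in Cd47ΔT T cells.

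Within ATP synthase the alpha, beta, gamma and delta subunits of the catalytic head (Atp5a1, Atp5b, Atp5c1 and Atp5d) had log2 fold changes of 0.11 to 0.17. Those of the membrane subunits c, e, f and g (Atp5g1, Atp5g2, Atp5g3, Atp5k, Atp5j2 and Atp5l) were 0.34 to 0.49, and that of Atp5e, the epsilon subunit of the head, was 0.36. Atp5f1, the membrane-anchored subunit b, was within the range of the head genes (0.16), as were Atp5h (0.14) and Atp5j (0.15) of the stalk, while Atp5o was at 0.23 and Atp5mpl at 0.31. Atp5b was at 731 and 747 TPM in control and 784 and 868 TPM in Cd47ΔT T cells, and Atp5a1, the alpha subunit, at 409 and 454 TPM against 467 and 475 TPM. Atp5c1, the central shaft, was at 236 and 251 TPM against 289 and 261 TPM. Atp5d, the delta subunit, had the lowest fold change of the complex (0.11), with 273 and 253 TPM against 278 and 289 TPM. Atp5l, the membrane subunit g, had the highest (0.49, limma adjusted p = 0.054), with 359 and 318 TPM against 508 and 445 TPM. These groupings were made after the values were seen and were not tested.

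Complex III gave 8 members above 0, with a median of 0.30. Of these, 7 were without overlap (87.5%, against 37% of all genes), and 1 was called (12.5%, against 8.5%). Uqcr10, a small subunit of the complex, was at 207 and 196 TPM in control and 285 and 287 TPM in Cd47ΔT T cells (log2 fold change 0.50 ± 0.10, SE; limma adjusted p = 0.031). Uqcrc2, a core protein of the complex, had the lowest fold change (0.05), at 135.9 and 136.3 TPM against 142 and 141 TPM. Uqcrc1, the other core protein, was at 122 and 119 TPM against 139 and 140.0 TPM. Uqcrfs1, the iron-sulphur protein itself, was at 104 and 99.7 TPM against 111 and 109.9 TPM, with no overlap.

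Complex I had the lowest median, 0.25 over 35 members. All 35 were above 0, 27 did not overlap (77.1%, against 37% of all genes), and 1 passed the test (2.86%, against 8.5%). Ndufa12, an accessory subunit of the peripheral arm, was at 91.0 and 92.9 TPM in control and 138 and 132 TPM in Cd47ΔT T cells (log2 fold change 0.55 ± 0.11, SE; limma adjusted p = 0.031). Ndufc1, a small membrane-arm subunit, had a higher fold change of 0.68 without passing the test (limma adjusted p = 0.090), at 84.1 and 61.5 TPM against 131 and 103 TPM. The lowest was Ndufb4 (0.05), with 32.2 and 21.4 TPM in control and 29.3 and 25.4 TPM in Cd47ΔT T cells.

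The 7 nuclear core subunits of complex I, which hold the flavin, iron-sulphur and quinone sites, had a median of 0.17 with none called and 1 at an unadjusted p under 0.05, and the 28 accessory subunits a median of 0.25. Ndufv1 was at 62.6 and 62.0 TPM in control and 66.4 and 64.5 TPM in Cd47ΔT T cells. These core genes did not overlap between genotypes except Ndufs7 (85.7% without overlap, against 37% of all genes). The highest fold change among them was that of Ndufv2 (0.36), against 0.55 for Ndufa12. Across the 73 members tested in both cell types, the fold change in T cells had a Spearman rho of -0.25 with exon length and -0.06 with the level in control T cells. Members are short, with a median exon length of 1587 bases against 4431 bases for the protein-coding genes tested in T cells.

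The number of calls rested on single libraries. Leaving out 1 T cell library leaves 1 library in its group, and the members called then changed, with members outside the 7 among them. Without a Cd47ΔT library, most or all of the 7 were lost. The log2 fold change of Cox5b was 0.56 without Cd47ΔT T cell replicate 1 and 0.75 without replicate 2. Quantile scaling left 1 call (Cox5b), and median-of-ratios scaling left none. Cox5b was called in 11 of 15 alternatives (adjusted p 6.8e-06 to 0.25), Atp5g3 in 6 (0.0023 to 0.54), and the other 5 in 8 each. The fold changes of the 7 stayed between 0.29 and 0.75 throughout.

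Other gene groups moved with the T cell comparison. Of 20 cell cycle genes 19 were higher in Cd47ΔT T cells, and their sum was 391 and 502 TPM in control and 1219.6 and 1099 TPM in Cd47ΔT T cells. Genes listed as markers of other cells were higher as well, against 8.5% of all genes tested. They were 11 of 11 macrophage and monocyte markers (sum 636 and 813 TPM against 2056 and 2342 TPM, most of it from Ly6c2), 8 of 9 tested cDC2 markers, 6 of 7 tested B cell markers, 7 of 8 plasma cell markers and 6 of 8 natural killer cell markers. No gene of these lists was at 0 in all T cell libraries. Transcripts of other cells and of the T cells themselves cannot be told apart here. Some levels were low, with B cell markers at a sum of 17.5 and 21.5 TPM in control T cells. Of 984 genes that passed the filter through Cd47ΔT values alone, 99.2% were above 0. How many markers passed in this way is not given. Among 12 T cell markers, Cd8a and Cd8b1 were higher and Cd4 was lower. The part of these differences in the members' values was not tested.

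Promoter windows of RefSeq (GRCm38.p6, 250 bases before to 50 after a gene's start) were matched for 65 of the 79 members. Those without a match included Atp5a1, Atp5mpl, Cox4i1, Cox4i2, Cox6a2, Cox6c, Cox8c, Ndufa2, Ndufb9, Ndufs1, Uqcrb, Uqcrc2 and Uqcrq. Both strands were searched for short cores of factors known for respiratory genes: GCATGCGC for NRF1, CCGGAAG for ETS factors such as GABP, and AAGATGGC for YY1. The NRF1 core was in 9 of 65 members (13.85%) and 3.94% of 17492 protein-coding genes, the ETS core in 14 (21.5%) and 12.95%, and the YY1 core in 10 (15.4%) and 3.57%. At least 1 core was in 28 members, and more than 1 kind in 5 (Atp5j, Atp5k, Atp5l, Cox6a1 and Uqcr11).

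The stretches that follow show members with these cores and are read 5′ to 3′ on the gene's strand, with the cores in capitals. GCGCATGCGC holds the NRF1 core on both strands at once, shifted by 2 bases, and CTTCCGG is the ETS core on the other strand. The first covers bases -170 to -1 before the start of Cox6a1 (chr5:115348959-115349128, minus strand), the second bases -80 to -1 of Atp5k (chr5:108434400-108434479, minus strand), and the third bases -80 to 4 of Uqcr11 (chr10:80406818-80406901, minus strand).
Cox6a1: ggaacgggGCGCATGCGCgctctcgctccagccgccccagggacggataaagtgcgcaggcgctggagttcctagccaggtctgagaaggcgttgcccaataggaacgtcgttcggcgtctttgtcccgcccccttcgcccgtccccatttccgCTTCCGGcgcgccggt
Atp5k: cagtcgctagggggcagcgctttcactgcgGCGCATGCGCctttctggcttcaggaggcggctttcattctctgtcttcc
Uqcr11: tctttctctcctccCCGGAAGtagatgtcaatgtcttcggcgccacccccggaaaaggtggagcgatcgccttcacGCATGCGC

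The YY1 core lay mostly after the start. In 8 of its 10 members (12.3%, against 1.48% of all genes) it lay after the start on the gene's own strand, with its first base between positions 23 and 39 when the start is position 1. Bases 13 to 40 are shown for Ndufa3 (chr7:3617385-3617412, plus strand), Ndufc1 (chr3:51408916-51408943, minus strand) and Ndufs7 (chr10:80249461-80249488, plus strand), all complex I subunits.
Ndufa3: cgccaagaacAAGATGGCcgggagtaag
Ndufc1: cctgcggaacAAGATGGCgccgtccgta
Ndufs7: aaggccgaggccAAGATGGCggcgctgg

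None of the 3 cores was in the windows of the 7 members called in T cells, all of which had a matched window. Bases -100 to -1 are given for the complex IV genes Cox5b (chr1:36691387-36691486, plus strand) and Ndufa4 (chr6:11907451-11907550, minus strand), in lower case throughout since no core occurs. The absence of these letters in the window says nothing about binding.
Cox5b: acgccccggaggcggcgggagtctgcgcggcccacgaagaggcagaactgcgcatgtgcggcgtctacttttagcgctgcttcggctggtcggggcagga
Ndufa4: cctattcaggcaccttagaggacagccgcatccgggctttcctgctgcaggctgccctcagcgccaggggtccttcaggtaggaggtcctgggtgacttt

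Subunits encoded by mitochondrial DNA went the other way in T cells. Of 13 tested, 10 were lower in Cd47ΔT T cells, against 0.875% of all genes, and none was higher, against 8.5%. The median log2 fold change of the 13 was -0.56. Quantile scaling left 8 lower and 1 of the 13 above 0, and median-of-ratios scaling left 2 lower and all 13 below 0. Their sum was 69911 and 65529 TPM in control and 40968 and 43742 TPM in Cd47ΔT T cells. For mt-Co1, the catalytic subunit of complex IV, the values were 16334 and 16948 TPM against 12309 and 12520 TPM (log2 fold change -0.42 ± 0.078, SE; limma adjusted p = 0.026). Reads of these genes can be shared with near-identical nuclear copies, and their levels are uncertain to that extent.

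The ratio of summed members to summed mitochondrially encoded subunits, which a constant factor for a library cannot alter, was 0.212 and 0.208 in control T cells and 0.428 and 0.382 in Cd47ΔT T cells. In cDC2s it was 0.608, 0.661 and 0.789 in control and 0.833, 0.803 and 1.11 in Cd47ΔT. In each cell type the genotypes did not overlap, with the highest control cDC2 library just under the lowest Cd47ΔT one. Relative to cytosolic ribosomal protein genes the members were at 0.0451 and 0.0491 in control against 0.0618 and 0.0610 in Cd47ΔT T cells. Those ribosomal genes held 32.8% of TPM in control T cell replicate 1 and 27.4% to 28.3% in the other T cell libraries. Relative to mitochondrial ribosomal protein genes the members were at 3.52 and 3.35 in control and 3.64 in both Cd47ΔT T cell libraries, the smallest of the 3 differences. In cDC2s the ratio to cytosolic ribosomal protein genes was 0.0751 to 0.0813 in control and 0.0873 to 0.0909 in Cd47ΔT, again without overlap. The ratio to mitochondrial ribosomal protein genes was 3.16 to 3.497 and 3.501 to 3.60, where the genotypes nearly touched. None of these ratios was tested.

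**Figure D4:**
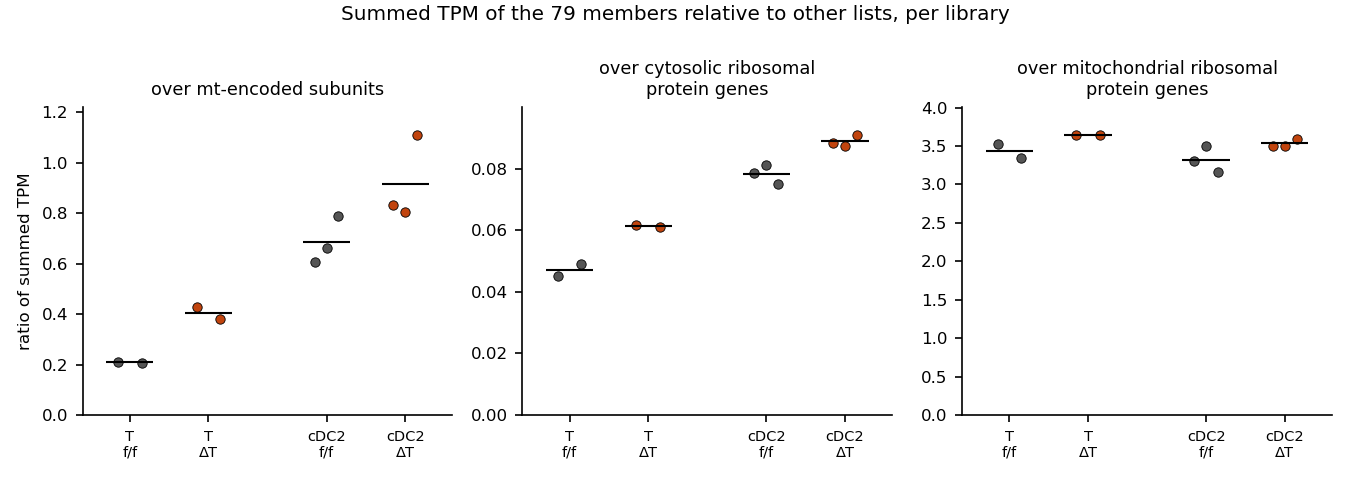
Summed TPM of the 79 members divided by that of mitochondrially encoded subunits, cytosolic ribosomal protein genes and mitochondrial ribosomal protein genes, 1 point per library, control in grey and Cd47ΔT in red, group means as bars, vertical axes from 0. The ratio to mitochondrially encoded subunits was 0.210 ± 0.0031 in control and 0.405 ± 0.032 in Cd47ΔT T cells (SD, n = 2 each), and 0.686 ± 0.093 and 0.915 ± 0.17 in cDC2s (SD, n = 3 each).

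Other groups of energy metabolism had lower medians in T cells than complex IV, at 0.40. Oxidative phosphorylation genes outside the naming rule had a median of 0.33, above those of complexes I and III and ATP synthase. Of complex II, the succinate dehydrogenase that the naming rule leaves out, none of 4 genes passed the test, with 2 at an unadjusted p under 0.05 and a median of 0.23. Of 8 tested genes that belong with oxidative phosphorylation under other names, 2 were higher: Atpif1, the inhibitor of ATP synthase, at 55.5 and 55.7 TPM against 100.2 and 105 TPM (log2 fold change 0.87 ± 0.12, SE; limma adjusted p = 0.011), and Usmg5, an ATP synthase membrane subunit, at 235 and 202 TPM against 341 and 307 TPM (0.57 ± 0.12, SE; limma adjusted p = 0.038). None of 40 tested assembly factors passed (3 at an unadjusted p under 0.05, median 0.19), nor did any of 14 genes of the citric acid cycle (2, median 0.10).

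Mitochondrial ribosomal protein genes gave 1 of 78 higher (1.28%, against 8.5% of all genes), with a median of 0.16. The gene called was Mrpl33 (log2 fold change 0.57, limma adjusted p = 0.030). Glycolysis gave 2 of 16 higher, Tpi1 and Gapdh (12.5%, against 8.5% of all genes), and 1 lower, Ldhb (against 0.875% of all genes). Regulators of mitochondrial biogenesis gave no call among 14 tested and none at an unadjusted p under 0.05, with a median of 0.00. They include Nrf1 (29.7 and 37.3 TPM in control, 29.6 and 33.5 TPM in Cd47ΔT T cells), Gabpa and Yy1, whose cores were searched in the promoters above. Gabpa shares exon sequence with the member Atp5j. In all, 28 members overlap an exon of another gene, and since no source states whether the counting used strand, their values are uncertain to that extent.

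In cDC2s, where Cd47 itself differed little between genotypes, none of 73 tested members passed the test. At an unadjusted p under 0.05 there were 8 higher members and 1 lower one, Atp5s. Together they were 12.3% of the members, against 13.4% of all genes in either direction. Of all 12058 genes tested, 0.249% were called higher and 0.381% lower. The median log2 fold change of the members was 0.07, with 39 above and 34 below 0, against a median of -0.07 and 39.3% above 0 for all genes. All 3 Cd47ΔT libraries were above all 3 controls for 10 members (13.7%), against 6.38% of all genes, and below them for 2 (2.74%), against 13.5%.

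The 10 members came from complexes I (5), III (3) and ATP synthase (2), and none from complex IV. Atp5h, the subunit d of the stalk of ATP synthase, was at 368, 393 and 431 TPM in control and 499.8, 525 and 558 TPM in Cd47ΔT cDC2s. The genotypes were separate, and the log2 fold change of 0.41 ± 0.093 (SE, n = 3 and 3) had an unadjusted p of 0.0025 and a limma adjusted p of 0.12. Ndufb6, an accessory subunit of the membrane arm of complex I, was at 16.6, 15.7 and 18.1 TPM in control and 26.3, 25.3 and 21.9 TPM in Cd47ΔT cDC2s (log2 fold change 0.52, limma adjusted p = 0.17). It was the highest fold change of complex I in cDC2s.

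Uqcr10 was at 141, 102 and 101 TPM in control and 153, 165 and 143 TPM in Cd47ΔT cDC2s (log2 fold change 0.44 ± 0.15, SE; limma adjusted p = 0.25). Ndufa12 was at 37.8, 31.1 and 28.1 TPM in control and 46.6, 48.8 and 39.6 TPM in Cd47ΔT cDC2s (0.47 ± 0.15, SE; limma adjusted p = 0.23). These were the 2 of the 7 members called in T cells whose cDC2 genotypes were also separate. Of the members separate in each cell type, 7 were higher in both (Atp5h, Atp5j, Ndufa12, Ndufb6, Ndufb8, Uqcr10 and Uqcrc2) and Cox7a2l was lower in both. These are 9.59% and 1.37% of the 73 members, against 2.95% and 1.73% of all 10650 genes.

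Cox7a2l was at 215, 207 and 274 TPM in control and 191, 189 and 206 TPM in Cd47ΔT cDC2s, a log2 fold change of -0.24 ± 0.12 (SE; limma adjusted p = 0.46). Its lowest control and highest Cd47ΔT values differed by less than the spread within either group. Atp5s, at 2.10, 2.14 and 2.71 TPM in control and 1.33, 0.71 and 0.60 TPM in Cd47ΔT cDC2s, was the other member below all controls, and it passed the filter through the control libraries alone. In T cells Atp5s was at 1.81 and 2.45 TPM in control and 4.77 and 2.64 TPM in Cd47ΔT, the opposite order.

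Lowest in cDC2s by complex were Ndufa4 (-0.31) in complex IV, Ndufs8 (-0.31) in complex I, Atp5o (-0.18) in ATP synthase and Uqcrq (-0.16) in complex III. Ndufa4 was at 63.3, 73.7 and 93.6 TPM in control and 69.6, 56.3 and 57.5 TPM in Cd47ΔT cDC2s, so the genotypes overlapped. Cox5b was at 168, 166 and 151 TPM in control and 142, 169 and 171 TPM in Cd47ΔT cDC2s, with full overlap. Cox6b2, at 0 to 15.6 TPM, overlapped widely and passed the filter through the Cd47ΔT libraries alone.

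**Figure D5:**
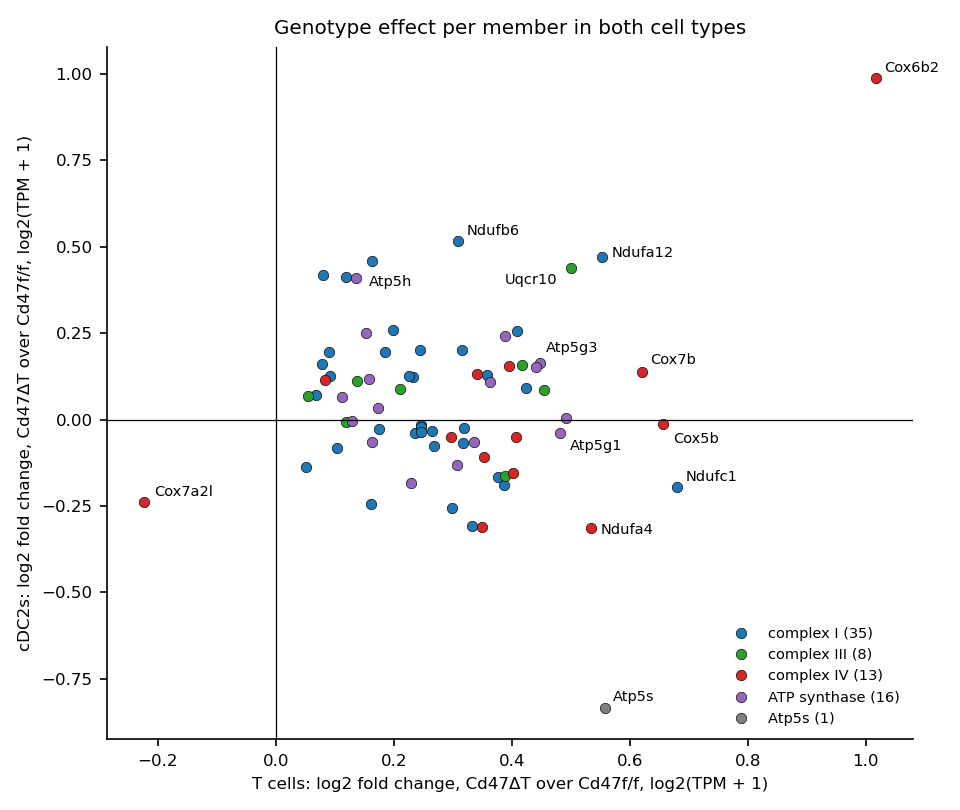
Log2 fold change of Cd47ΔT over Cd47f/f in T cells (horizontal) against that in cDC2s (vertical), both on log2(TPM + 1), 1 point for each of the 73 members tested in both cell types, coloured by complex. Nearly all points lie right of 0 while they are spread above and below 0 on the vertical axis (39 above, 34 below), with Cox7a2l alone at the lower left.

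Fold changes of the 73 members in T cells and cDC2s had a Pearson r of 0.09 and a Spearman rho of -0.07 across genes. In the test of the difference between cell types, over 10650 genes, 1 of 73 members passed (1.37%), against 5.4% of all genes with a higher effect in T cells. That member was Cox5b, whose genotype effect was 0.67 ± 0.17 (SE) higher in T cells than in cDC2s (limma adjusted p = 0.042). Ndufa4 had a larger difference, 0.85 ± 0.23 (SE), without passing the test (limma adjusted p = 0.052), and Cox8a followed (0.46, adjusted p = 0.096). All 3 are complex IV subunits. Next by p-value were Atp5s (limma adjusted p = 0.101) and Uqcrq of complex III (limma adjusted p = 0.105). Of 13 tested complex IV members 12 had a difference above 0, down to 0.014 for Cox7a2l, and Cox4i1 was at -0.030. At an unadjusted p under 0.05 there were 14 members, Atp5s among them, all with the higher effect in T cells. They were 19.2% of the members, against 15.8% of all genes in either direction.

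Complex IV had the highest median difference, 0.46 over 13 genes, then ATP synthase (0.24), complex I (0.19) and complex III (0.12), and the median of all genes was 0.19. The call of Cox5b held in 6 of 20 alternatives, with adjusted p from 0.037 to 0.29, and was lost without any 1 of the 4 T cell libraries and without cDC2 replicates 1 and 2 of either genotype. Ndufa4 passed in 3 of the 20, without cDC2 replicate 1 of either genotype (adjusted p = 0.023 and 0.042) and with a robust variance trend (0.047). Since the kits differ between the cell types, a difference in effect and a difference in how the kits register it cannot be told apart.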

How the data were processed

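The authors deposited TPM for 45706 Ensembl genes in 10 libraries. The submitters' processing notes name STAR and RSEM, without versions, and GRCm38. RNA came from RNeasy mini (T cells) or micro (cDC2s) columns, per the labels' protocols. TPM keep no depth, so no counting interval is given. GENCODE M21 gave symbols and positions for 45143 identifiers (98.8%) and none for the other 563.

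limma 3.58.1 (R 4.3.3; lmFit, then eBayes with trended variance) was run on log2(TPM + 1), a scale that understates changes of low genes. Each cell type had its own fit, of genes reaching 1 TPM in 2 or more T cell libraries or in 3 or more of the cDC2 libraries, with genotype as the term. A joint fit of the genes in both tested the difference between cell types. Benjamini-Hochberg adjustment covered all genes tested, with calls under 0.05. The fits were tested on simulated data. Members, lists and motifs were chosen with earlier results of these data known. Named were the called members (up to 12 a comparison), the highest and lowest fold change of each complex, a set of core and isoform genes (1 is not reported here), and up to 3 called genes of other lists. Members under 1 TPM everywhere are named once. Other genes, ratios and groupings given were chosen after their values were seen.

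Alternatives were a pseudocount of 0.1 or 5, no low-value filter or one of 5 TPM, scaling by quantiles, by median of ratios or to protein-coding genes (without mitochondrial and immunoglobulin genes), a flat or robust variance trend, a replicate block, 1 joint fit and leaving out each library. Counts of separate genotypes under 2 scalings and counts at a mean of 5 TPM or without members admitted through 1 genotype were added after seeing the data. Tables and figures used Python (3.11.15) with pandas (2.3.3), numpy (2.4.6) and matplotlib (3.10.9).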

Additional observations from a re-analysis of the deposited data

Results flagged for a closer look

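The genotype effect on Cox5b differed between the cell types by a test of the difference itself. It was 0.67 ± 0.17 (SE) higher on the log2 scale in T cells than in cDC2s (limma interaction, adjusted p = 0.042). Values were higher in 2 of 2 Cd47ΔT T cell libraries than in both controls, as for 37% of all genes. Those in cDC2s overlapped. Of 73 members tested for this difference, 1 passed (1.37%, against 5.4% of all genes). Since the kits differ between the cell types, a difference in effect and one in how the kits register it cannot be told apart. The call of Cox5b was lost with quantile, median-of-ratios and protein-coding scaling. The adjusted p ranged from 0.037 to 0.29 over 20 alternatives and was under 0.05 in 6 of them.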

How the results depend on the processing

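Against 7 called members in T cells, no filter, median-of-ratios scaling and no variance trend gave 0, quantile scaling 1 and 1 fit of all libraries 2. With the replicate block 28 were called, all 7 among them. Deviations of same-numbered libraries correlated at 0.19 in T cells and at -0.044, 0.059 and 0.119 in cDC2s, so the numbers were not taken to pair samples. Leaving out 1 library gave 1 to 18 calls and a median log2 fold change of 0.22 to 0.35, against 0.30, and the lone library of a group is then assumed to vary like the other group. The median was 0.15 with quantile and with median-of-ratios scaling.

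In T cells some log2 fold changes turned negative. Quantile scaling gave -0.052 for Atp5a1, -0.089 for Cox4i1, -0.078 for Ndufb4, -0.058 for Ndufv1 and -0.052 for Uqcrc2. Median-of-ratios scaling gave -0.027 for Atp5a1, -0.044 for Atp5d, -0.072 for Cox4i1, -0.10 for Ndufb4, -0.085 for Ndufv1, -0.10 for Uqcrc2 and -0.036 for Uqcrfs1. Leaving out 1 library gave -0.0092 to 0.18 for Cox4i1 and -0.23 to 0.33 for Ndufb4. The counts that follow cover called and uncalled members, and only the 7 called ones could lose a call. Of 443 values for 30 members, 361 kept their direction and side of the threshold, 48 lost and 19 gained a call, and 15 changed sign.

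No member was called in cDC2s under any alternative. The median there was -0.026 to 0.071 when 1 library was left out, negative without Cd47ΔT replicate 3. Cox5b in cDC2s, at -0.013, turned to 0.054 with quantile scaling, 0.067 with median-of-ratios scaling and 0.054 after protein-coding rescaling, and ran from -0.062 to 0.073 when 1 library was left out. For the difference between cell types, no filter, quantile, median-of-ratios and protein-coding scaling called 0 members, a robust trend 2, and leaving out 1 library 0 to 1, against 1. Its median was 0.064 with quantile and 0.0023 with median-of-ratios scaling, against 0.23. Protein-coding rescaling moved the summed members from 14213 to 16857 TPM in control T cells and from 9299 to 13230 TPM in control cDC2s. The cause of these changes was not tested.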
